A study of Homo sapiens with 6 samples.

Results

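Cells show samples of their own proteins at the surface on MHC class I molecules, where CD8 T cells and natural killer cells read them. A class I molecule is a heavy chain, encoded by an HLA gene, held together with the light chain beta-2 microglobulin (B2M) and a short peptide. The peptide is cut by the proteasome, in its inducible form by subunits such as PSMB8 and PSMB9, carried into the endoplasmic reticulum by the transporter TAP1/TAP2 and fitted into the heavy chain with the help of tapasin (TAPBP). Most of these genes respond to interferon and several to NF-κB, and tumor cells can lower them.

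The 9 genes HLA-B, HLA-C, HLA-E, B2M, TAP1, TAP2, TAPBP, PSMB8 and PSMB9 were taken by symbol from the 30267 genes of the deposited table. The measured RNA came from SW839, a cell line established from a renal cell carcinoma. There were 3 libraries with a hairpin against the E3 ubiquitin ligase gene RNF25 (shRNF25) and 3 libraries with the pLKO vector (shControl). Apart from the selection of the lines, no drug, cytokine or time point is named for either group. Only 1 hairpin name is given, so an effect of RNF25 and one of this hairpin alone cannot be told apart. The labels' treatment field mentions the hairpin plasmid for the controls as well, and the groups were therefore taken from titles, genotypes and library names. According to the study's methods, stable lines were made with lentivirus and selected with puromycin. The study describes its experiments as independent repeats in general, but the labels do not say whether these libraries came from separate cultures, and p-values measure only the spread between them, which may be technical.

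Values are normalized counts, that is, reads on a gene divided by a scaling factor of the library. Library depth on genes ranged from 18647460 to 19943154 reads. Genes reaching a value of 10 in 3 or more libraries, 16554 in number, were tested with limma on log2(normalized count + 1), all 9 among them, and a gene passed the test where its Benjamini-Hochberg adjusted p over all 16554 genes was below 0.05. RNF25 itself was at 694.2, 533.5 and 536.4 in shControl and at 214.1, 245.7 and 265.0 in shRNF25, or 41.1% of the control mean (limma, log2 fold change -1.27, SE 0.15, adjusted p = 0.000585). The control libraries were less alike than the hairpin libraries, with pairwise correlations over genes of 0.976 to 0.987 against 0.994 and a median SD of the log2 values of 0.26 against 0.0959. The epithelial keratin gene KRT8 led the renal markers, whose summed normalized count was 71129 to 90155 in shControl and 80715 to 84461 in shRNF25. KRT8, KRT18 and KRT19 made up most of this sum, so it says little on kidney origin. Less abundant members included PAX8 (means of 127.4 in shControl and 93.98 in shRNF25), CA9 (23.59 and 4.938) and CDH6 (5.001 and 6.21). CA9 and CDH6 were too low to be tested, and PAX2 and LRP2 were not found. Members of that list differed in direction: VIM was higher (limma log2 fold change 1.31, adjusted p = 0.00805) and KRT19 lower (-0.47, adjusted p = 0.0278), and KRT8 was at 22206 to 31848 in shControl and 35088 to 38009 in shRNF25 (0.38, adjusted p = 0.111). Immune cell markers, which would mark another source of MHC transcripts, summed to 39.8 to 62.6 in shControl and 31.46 to 53.76 in shRNF25. Of the 8 immune markers listed in the table, 6 stayed below 10 in every library, and CD3E and ITGAX never had more than 3 reads. Fibroblast markers summed to 1107 to 1291 in shControl and 865.3 to 1012 in shRNF25, mostly COL1A1, with COL1A2 and DCN at no more than 3 reads in any library, and the part of such cells in the results was not tested. Endothelial markers summed to 489.4 to 695.1 and 494.1 to 645.1, mostly PECAM1, while CDH5 was lower (limma log2 fold change -4.12, adjusted p = 0.000213), KDR was higher (1.78, adjusted p = 0.00116) and VWF, too low to be tested, was 9.291 and 5.286 in the group means without overlap. The part of these differences in the results was not tested either.

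In shRNF25, 4 genes that cut, carry or load peptides fell, and the heavy chains did not pass the test. PSMB9 was 1.96-fold lower, TAP2 1.47-fold, PSMB8 1.46-fold and TAPBP 1.34-fold, whereas HLA-B, HLA-C, HLA-E, B2M and TAP1 did not pass. Thus 4 of the 9 genes were lower and 0 higher at an adjusted p below 0.05, where 10.8% of all tested genes were lower and 10.5% higher. With limma at an unadjusted p below 0.05 the counts were 5 and 0, and edgeR and DESeq2 on the recovered reads each gave 4 and 0 after adjustment. Over all tested genes, 18.0% were lower and 17.3% higher at an unadjusted p below 0.05, 10.0% and 11.3% in edgeR and 12.3% and 11.1% in DESeq2. With a fold of at least 1.5 added, the criterion in the study's methods, PSMB9 alone passed, and 7.10% of tested genes were lower by that rule. The median log2 fold change of the 9 genes was -0.29, against -0.01 over all tested genes. The mean of shRNF25 was the lower one for 9 of 9 genes as deposited, although HLA-C, HLA-E and TAP1 turned slightly positive under quantile normalization. Over all tested genes, 8478 of 16554 had a log2 fold change below 0 in limma. In a bulk measurement, fewer cells with a transcript and less of it per cell cannot be told apart.

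**Figure D1:**
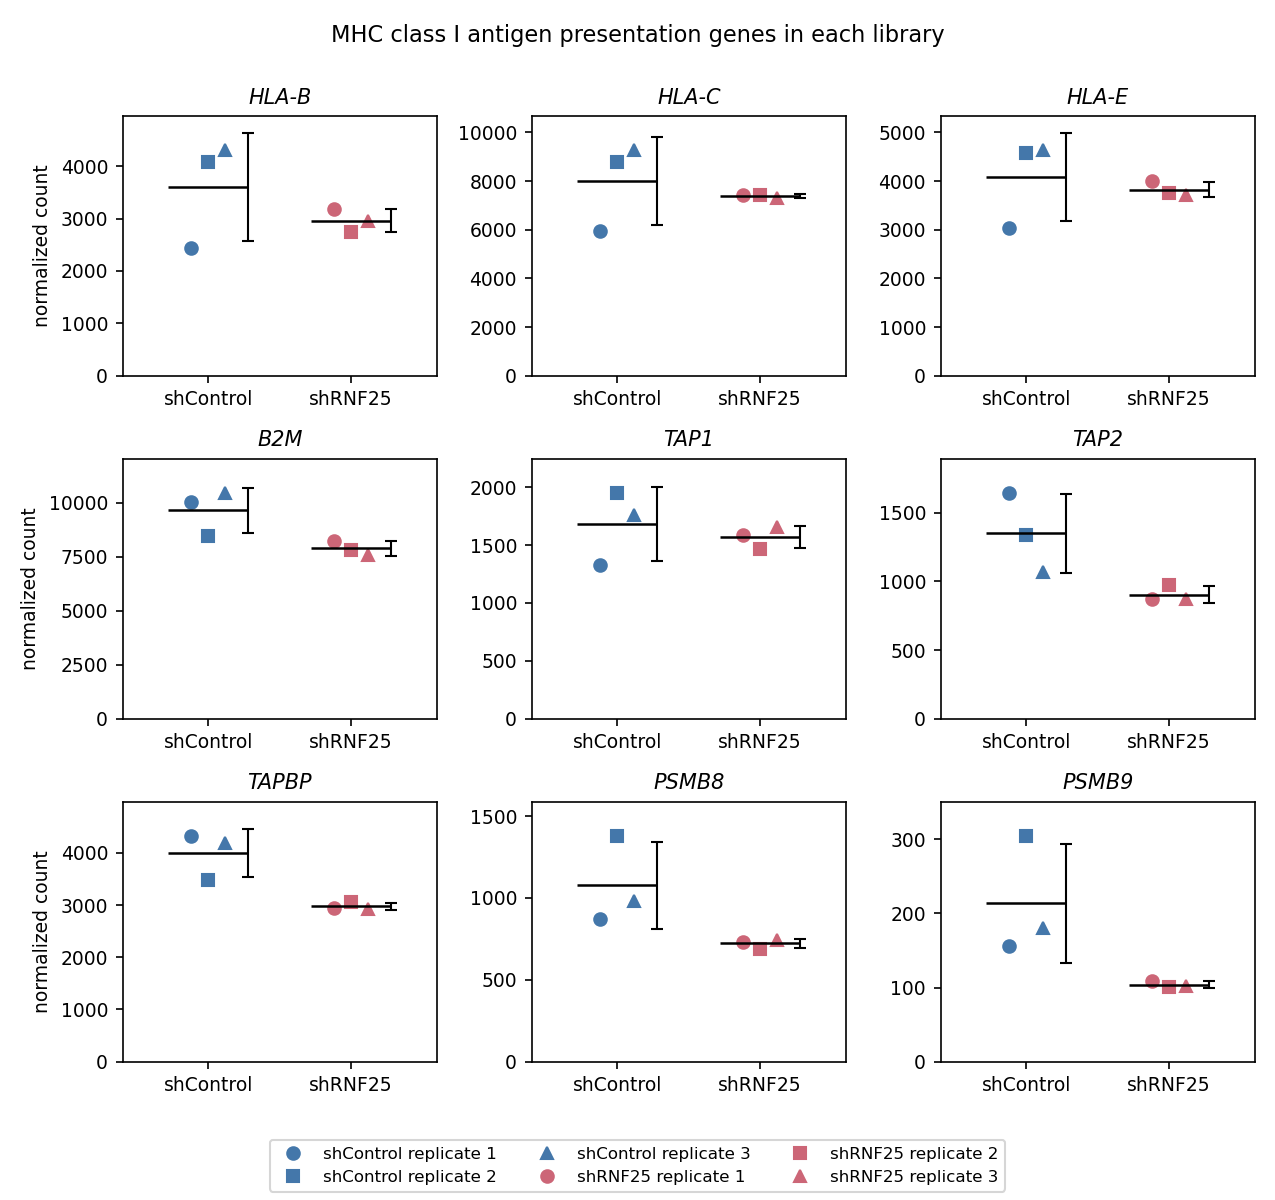
Normalized counts of the 9 genes in each library, with shControl on the left and shRNF25 on the right of each panel, a symbol for each replicate, the group mean as a line and the SD (n = 3) as a bar. The groups are separate for B2M, TAP2, TAPBP, PSMB8 and PSMB9, and shControl replicate 1 lies below all 3 shRNF25 libraries for HLA-B, HLA-C, HLA-E and TAP1.

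Of the 9 genes, 8 lie in the MHC region on chromosome 6 and B2M on chromosome 15. TAP2, PSMB8, TAP1 and PSMB9 are neighbors in the class II part of the region, and TAP1 and PSMB9 start 488 bases apart and are read in opposite directions. Promoter windows of 250 bases before to 50 after the start came from RefSeq (GRCh38.p14) for 8 of the 9 genes, in 10 windows because TAP1 and PSMB8 have a pair each. They are printed for 5 genes to set the motifs of PSMB8, PSMB9 and TAPBP, which passed the test, beside those of TAP1 and HLA-B, which did not. Capitals mark matches, on either strand, to the NF-κB consensus or to the interferon-response repeat (GAAA, any 2 bases, GAAA), and all are reference sequence, not the alleles of SW839. The windows, each 5′ to 3′ on the strand of its gene, are HLA-B at chr6:31357130-31357429 on the minus strand, TAP1 at chr6:32853655-32853954 on the minus strand, TAPBP at chr6:33314029-33314328 on the minus strand, the second PSMB8 window at chr6:32843998-32844297 on the minus strand and PSMB9 at chr6:32853942-32854241 on the plus strand.
HLA-B: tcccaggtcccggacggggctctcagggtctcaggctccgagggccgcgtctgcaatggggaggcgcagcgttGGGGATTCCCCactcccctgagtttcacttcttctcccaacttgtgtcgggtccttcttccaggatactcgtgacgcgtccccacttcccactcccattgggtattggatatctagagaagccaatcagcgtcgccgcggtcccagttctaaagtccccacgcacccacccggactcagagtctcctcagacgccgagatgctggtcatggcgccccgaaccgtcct
TAP1: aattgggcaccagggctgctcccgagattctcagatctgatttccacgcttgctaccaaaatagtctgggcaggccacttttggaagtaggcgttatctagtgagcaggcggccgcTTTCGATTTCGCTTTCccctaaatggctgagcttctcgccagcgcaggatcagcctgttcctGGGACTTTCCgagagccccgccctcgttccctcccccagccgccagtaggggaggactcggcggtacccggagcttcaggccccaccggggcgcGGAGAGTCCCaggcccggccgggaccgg
TAPBP: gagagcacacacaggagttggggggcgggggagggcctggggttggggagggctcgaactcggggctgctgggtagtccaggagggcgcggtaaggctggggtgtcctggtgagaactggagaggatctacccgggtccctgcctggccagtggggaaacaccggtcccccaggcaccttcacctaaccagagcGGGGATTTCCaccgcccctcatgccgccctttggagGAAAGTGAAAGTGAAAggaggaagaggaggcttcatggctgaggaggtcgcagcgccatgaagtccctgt
PSMB8: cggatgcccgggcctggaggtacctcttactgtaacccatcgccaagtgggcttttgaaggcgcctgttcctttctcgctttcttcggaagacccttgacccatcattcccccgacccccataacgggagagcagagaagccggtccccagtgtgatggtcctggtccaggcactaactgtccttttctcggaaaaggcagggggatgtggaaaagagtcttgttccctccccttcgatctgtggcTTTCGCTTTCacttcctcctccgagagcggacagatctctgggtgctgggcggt
PSMB9: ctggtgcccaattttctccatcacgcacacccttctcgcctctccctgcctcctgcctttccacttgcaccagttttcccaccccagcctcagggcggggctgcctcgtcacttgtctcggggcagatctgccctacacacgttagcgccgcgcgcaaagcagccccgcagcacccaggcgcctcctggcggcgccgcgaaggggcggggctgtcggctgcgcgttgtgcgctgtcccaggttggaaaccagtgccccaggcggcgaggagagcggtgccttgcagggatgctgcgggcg

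The NF-κB consensus was found in 5.91% of all 35116 windows of the table, the interferon-response repeat in 3.57% and the CCAAT box in 34.6%. HLA-B and HLA-C held the NF-κB consensus without the repeat, and the capitals of HLA-B cover a palindrome that matched on both strands at overlapping positions. B2M, TAP1 and TAPBP held both, and in each of these the repeat occurred as overlapping copies. TAP2 and the second PSMB8 window held the repeat alone. The PSMB9 window held neither of the capitalized motifs, and like those of HLA-B, HLA-C, B2M and TAP1 it held CCAAT. The TAP1 matches at -72 to -63 (NF-κB consensus) and from -134 to -119 (repeat) lie between the TAP1 and PSMB9 starts. They are therefore upstream of PSMB9 as well, but outside its window. The first PSMB8 window and the second TAP1 window held none of the 3 motifs. Genes past the test and genes that did not pass both included windows with an NF-κB match, TAPBP on the one side and HLA-B, HLA-C, B2M and TAP1 on the other. Only exact matches were sought, so a window without one can still hold an imperfect copy of a motif. A match in a window is a description of its letters, and binding there was not measured in these libraries.

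Per kb of all annotated exon, HLA-C was the most abundant of the 9 genes, at 3195 normalized counts in shControl and 2948 in shRNF25. B2M (1588 and 1298), HLA-E (1372 and 1286) and HLA-B (1182 and 969.6) followed, then TAPBP (790.4 and 588.4). PSMB8 (359.6 and 241.1) and TAP1 (350.0 and 326.9) were close, with TAP2 (211.2 and 141.5) and PSMB9 (69.54 and 33.85) below them. The order of the group means differed between the groups only for PSMB8 and TAP1, which changed places. Within libraries PSMB8 exceeded TAP1 per length in 2 of 6, so these neighbors cannot be ordered. B2M exceeded HLA-E in 5 of 6 libraries and HLA-B exceeded TAPBP in 5 of 6, and every other neighboring pair kept its order in 6 of 6. The order depends on the length used. Per kb of the longest coding transcript, a length tried after the values were seen, B2M (5661) came before HLA-C (5154) in shControl but after it in shRNF25 (4627 and 4756), HLA-B came before HLA-E in 6 of 6 libraries, and PSMB9 came before TAP2 in 2 of 6. Together the 9 genes took 0.135, 0.169 and 0.183% of the reads of shControl replicates 1, 2 and 3 and 0.165, 0.154 and 0.154% in shRNF25, so that their summed share overlapped between the groups.

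The heavy chains bind the peptide, and HLA-B and HLA-C show it to CD8 T cells. HLA-B was at 2429, 4079 and 4311 in shControl replicates 1, 2 and 3 and at 3185, 2743 and 2947 in shRNF25 replicates 1, 2 and 3. The shRNF25 libraries thus lay above the first control and below the other two, with means of 3606 ± 1030 and 2958 ± 221 (SD, n = 3). The log2 fold change was -0.24 (95% interval -0.695 to 0.208, limma adjusted p = 0.42). HLA-C, in the same order of libraries, was at 5946, 8799 and 9282 in shControl and at 7413, 7445 and 7315 in shRNF25. Its control mean of 8009 ± 1800 and shRNF25 mean of 7391 ± 68.1 (SD, n = 3) differed by less than the spread of the controls (log2 fold change -0.09, 95% interval -0.454 to 0.277, limma adjusted p = 0.734).

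HLA-E, a heavy chain that presents leader peptides of other class I chains to natural killer cell receptors, was at 3032, 4568 and 4642 in shControl and at 4007, 3749 and 3718 in shRNF25. Again the first control was the lowest of the 6 libraries and the other controls the highest. Means were 4081 ± 909 and 3825 ± 159 (SD, n = 3), with a log2 fold change of -0.07 (95% interval -0.433 to 0.298, limma adjusted p = 0.8). The intervals of these 3 heavy chains took in a rise as well as a fall as large as that of TAPBP below. Their exact two-sided permutation p-values were 0.4, 0.8 and 0.9, where 3 libraries against 3 cannot go below 0.1.

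B2M, the light chain shared by all class I heavy chains, was at 10022, 8473 and 10464 in shControl and at 8252, 7817 and 7599 in shRNF25. The highest shRNF25 library stayed under the lowest control, so the groups did not overlap. Its mean fell from 9653 ± 1050 to 7889 ± 332 (SD, n = 3), 81.7% of the control, but the log2 fold change of -0.29 (95% interval -0.542 to -0.0303) had an adjusted p of 0.105 in limma and did not pass. B2M was thus the 1 gene of the 9 that had separate groups and did not pass.

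TAP1 and TAP2 encode the paired chains of the peptide transporter, and TAP2 passed the test while TAP1 did not. TAP1 was at 1331, 1951 and 1762 in shControl and at 1588, 1465 and 1659 in shRNF25, with means of 1682 ± 318 and 1571 ± 98.6 (SD, n = 3). As with the heavy chains, the first control lay below and the others above all shRNF25 libraries, and the log2 fold change was -0.08 (95% interval -0.414 to 0.25, limma adjusted p = 0.73). TAP2 was at 1645, 1338 and 1066 in shControl and at 868.4, 974.3 and 870.3 in shRNF25. Here the first control was the highest library, the groups did not overlap, and the mean fell from 1350 ± 289 to 904.3 ± 60.6 (SD, n = 3; log2 fold change -0.56, SE 0.157, limma adjusted p = 0.0338). The annotation places another protein-coding gene, AL669918.1, over 32.3% of the exon bases of TAP2 on the same strand. Of the 50-base stretches of TAP2, 35.8% occur in that gene as well, so counting may have split or left out reads of TAP2.

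TAPBP encodes tapasin, which bridges the transporter and the heavy chain and favors tightly bound peptides. It was at 4324, 3478 and 4187 in shControl and at 2939, 3055 and 2932 in shRNF25. The 3 shRNF25 libraries were nearly equal and all lay below every control, and the mean fell from 3996 ± 454 to 2975 ± 69.2 (SD, n = 3). The log2 fold change was -0.42 (SE 0.112, 95% interval -0.673 to -0.166, limma adjusted p = 0.0278).

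PSMB8 and PSMB9 encode catalytic subunits that replace constitutive ones when the immunoproteasome is built. PSMB8 was at 871.1, 1379 and 983.2 in shControl and at 733.5, 689.9 and 744.4 in shRNF25. All shRNF25 libraries were below all controls, with means of 1078 ± 267 and 722.6 ± 28.9 (SD, n = 3; log2 fold change -0.55, SE 0.165, limma adjusted p = 0.0431). PSMB9 was at 155.9, 304.7 and 180.2 in shControl and at 109.3, 100.7 and 102.0 in shRNF25. It had the largest fold change of the 9 genes, from 213.6 ± 79.8 to 104.0 ± 4.68 (SD, n = 3), or 48.7% of the control (log2 fold change -0.97, SE 0.235, 95% interval -1.5 to -0.44, limma adjusted p = 0.0186). In both genes shControl replicate 2 was the highest control, and the lowest control was nearer to the shRNF25 libraries than to it.

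The antisense transcript PSMB8-AS1 overlaps 20.6% of the exon bases of PSMB8 on the opposite strand, 9.49% of TAP1 on the opposite strand and 5.66% of PSMB9 on the same strand. It was at 14.37, 12.31 and 7.555 in shControl and at 7.289, 6.465 and 10.49 in shRNF25, far below each of the 3 genes it overlaps. Whether reads were counted by strand is not given in the sources used here. Reads of PSMB8 and TAP1 and of this transcript may thus be mixed or left uncounted. For PSMB9, 12.1% of its 50-base stretches recur in PSMB8-AS1 on its own strand, where counting by strand would not separate them. In reference transcripts, 2.54% of the 50-base stretches of HLA-B, 6.71% of HLA-C and 5.13% of HLA-E recur in other genes, mostly HLA genes. For TAPBP 5.99% recur, spread over 380 other genes. The pseudogene AL671883.2 overlaps 17.8% of the exon bases of HLA-B on the opposite strand, where the same doubt about strand applies. How reads of the HLA alleles of SW839 were assigned was not tested.

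Separate groups, with every shRNF25 library below every control, were found for 5 of the 9 genes (B2M, TAP2, TAPBP, PSMB8 and PSMB9), where 21.8% of all tested genes showed this in the lower direction and 20.7% the reverse in the higher direction. For 9 of 9 genes every shRNF25 library was below shControl replicates 2 and 3, a pattern of 30.1% of tested genes. The remaining genes, HLA-B, HLA-C, HLA-E and TAP1, had shControl replicate 1 below every shRNF25 library, and 4.94% of tested genes had shRNF25 between that control and the other two in this way. Whether the groups of these 4 genes overlapped thus turned on a single control, and the labels give no reason to leave it out. Library names differ in form among the controls but not among the shRNF25 libraries. The labels do not say whether culture date or sequencing run differed too, and such a difference could not be told apart from the hairpin.

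Without shControl replicate 1, 7 of the 9 genes passed as lower, against 18.0% of all tested genes. HLA-B then had a log2 fold change of -0.51 (limma adjusted p = 0.00164), HLA-C -0.29 (adjusted p = 0.0138) and HLA-E -0.27 (adjusted p = 0.0177). TAP1 at -0.24 (adjusted p = 0.0507) and B2M at -0.26 (adjusted p = 0.0756) did not pass in that fit. Without any 1 of the shRNF25 libraries, 0 of 9 passed in limma, although 4 of 9 were lower at an unadjusted p below 0.05 in each of these fits. Of all tested genes, 5.23, 5.28 and 5.20% were lower without shRNF25 replicates 1, 2 and 3 after adjustment, and 13.0, 13.6 and 13.0% at an unadjusted p below 0.05. In these 3 fits PSMB9 had adjusted p-values of 0.0658, 0.0709 and 0.0708. PSMB9 passed without any 1 control, and PSMB8 passed without shControl replicate 1 but not without replicate 2 (adjusted p = 0.0765) or 3 (adjusted p = 0.0509). TAP2 did not pass without shControl replicate 2 (adjusted p = 0.083) nor TAPBP without replicate 3 (adjusted p = 0.0534), and B2M passed without replicate 2 (-0.38, limma adjusted p = 0.0429).

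**Figure D2:**
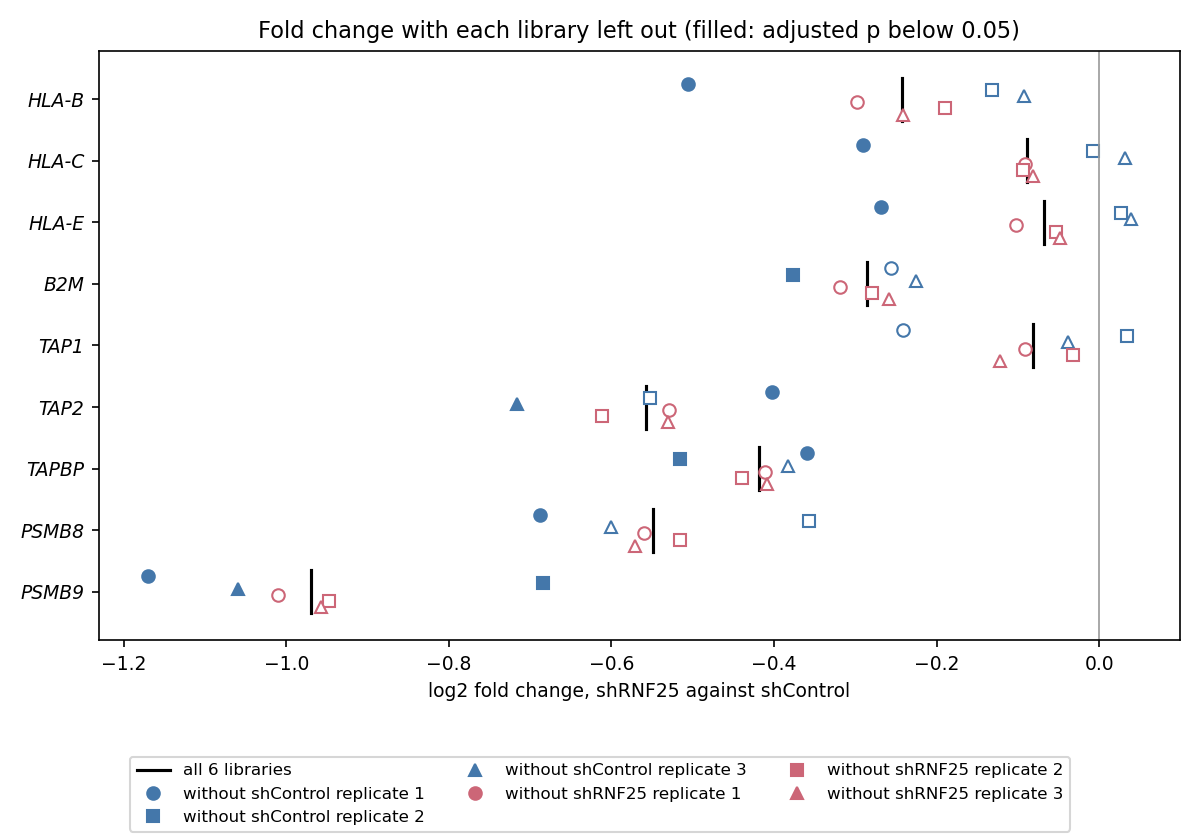
Log2 fold change of the 9 genes, shRNF25 against shControl, with all 6 libraries (black line) and with each library left out in turn (symbols, filled where the adjusted p was below 0.05). Leaving out shControl replicate 1 moves HLA-B from -0.24 to -0.51, and HLA-C, HLA-E and TAP1 cross 0 without one of the other controls.

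Ratios of a pair of genes within a library do not depend on the scaling of that library. PSMB9 divided by PSMB6, the constitutive subunit whose place it takes, was 0.0816, 0.0823 and 0.0692 in shControl and 0.0385, 0.0392 and 0.0353 in shRNF25. PSMB8 divided by PSMB5 was 0.203, 0.203 and 0.178 in shControl and 0.149, 0.146 and 0.148 in shRNF25. Both ratios were separate between the groups and more even among the controls than the genes themselves, and they were 2.06-fold and 1.32-fold lower in shRNF25. The third such pair, PSMB10 to PSMB7, overlapped between the groups (difference of the log2 ratio -0.13).

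PSMB9 divided by TAP1, its head-to-head neighbor, was 0.117, 0.156 and 0.102 in shControl and 0.0688, 0.0687 and 0.0615 in shRNF25, a ratio added after the values of both genes were seen. It was 1.86-fold lower without overlap. TAP1 to TAP2 was 0.809, 1.46 and 1.65 in shControl and 1.83, 1.5 and 1.91 in shRNF25, which overlapped at shControl replicate 3 and shRNF25 replicate 2. The heavy chains relative to B2M overlapped as well, with differences of the log2 ratio of 0.04 for HLA-B, 0.20 for HLA-C and 0.22 for HLA-E, and HLA-B to HLA-C differed by -0.15. Over these 9 ratios the exact two-sided permutation p was 0.1, the smallest that 3 against 3 allows, for the 3 ratios without overlap (adjusted p = 0.3), so that none of them could pass a threshold of 0.05.

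**Figure D3:**
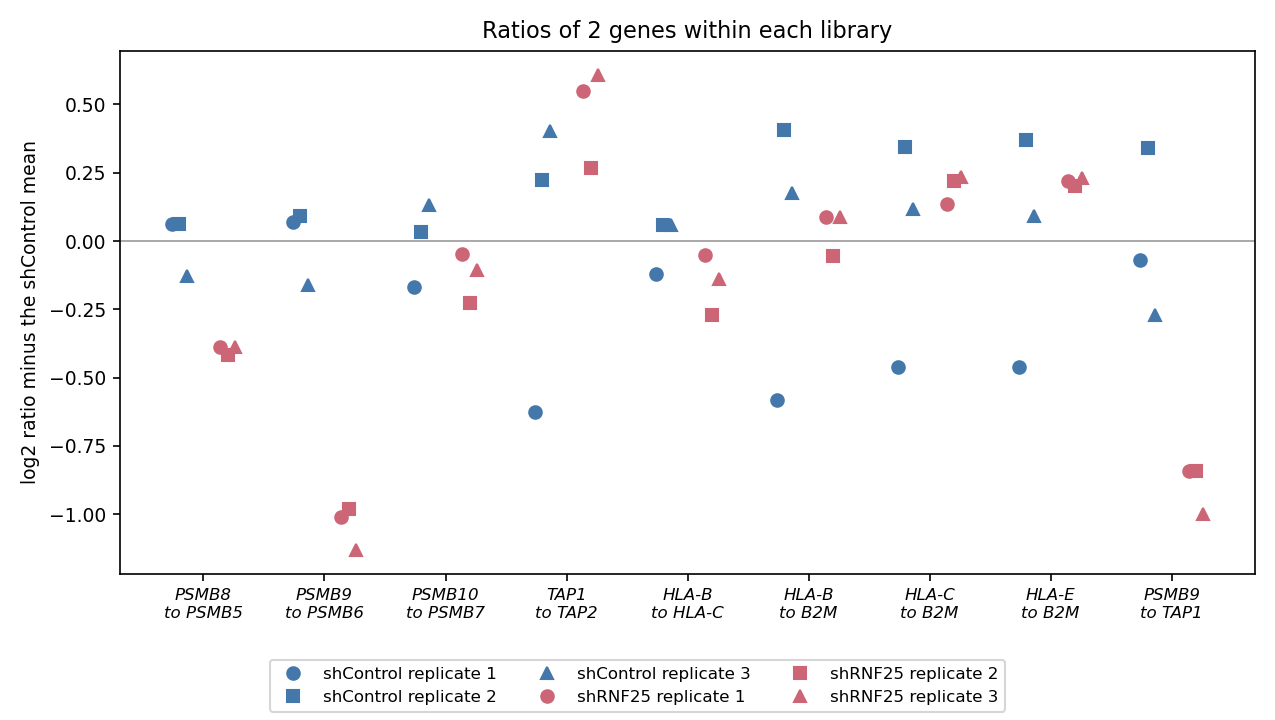
Log2 ratio of 2 genes within each library minus the mean of that ratio in shControl, for 9 gene pairs, with a symbol for each replicate. The shRNF25 points lie below all shControl points for PSMB8 to PSMB5, PSMB9 to PSMB6 and PSMB9 to TAP1, and overlap the controls for the other 6 pairs.

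The pathway around the 9 genes was described with 9 further lists of 104 genes, of which 94 were tested. Of these, 23 (24.5%) were lower and 7 (7.45%) higher at an adjusted p below 0.05. Over all tested genes the shares were 10.8% and 10.5%, which also stand beside the limma counts of each list below. The lists were compiled with earlier results of these libraries known, so their counts and the genes named from them are a description, without a test of any list as a set.

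Among 12 genes of peptide loading and trimming, 4 were lower and 0 higher, with a median log2 fold change of -0.28. At an unadjusted p below 0.05 these counts were 5 and 0, and edgeR and DESeq2 gave the same 4 and 0 after adjustment. ERAP1, the aminopeptidase that trims peptides to class I length in the endoplasmic reticulum, was at 1447, 1303 and 1194 in shControl and at 793.6, 732.3 and 775.9 in shRNF25 (limma log2 fold change -0.77, adjusted p = 0.00178). ERAP2, its partner with other cutting preferences, was at 993.8, 653.6 and 677.8 in shControl and at 491.1, 506.1 and 545.2 in shRNF25 (-0.57, adjusted p = 0.0393). Both trimming enzymes had separate groups.

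The chaperone genes CALR (calreticulin, part of the loading complex; limma log2 fold change -0.46, adjusted p = 0.0351) and HSPA5 (-0.66, adjusted p = 0.0177) were also lower. CANX, which holds new heavy chains, stood at -0.26 (adjusted p = 0.141) and PDIA3, the disulfide partner of tapasin, at -0.26 (adjusted p = 0.157). Both of these had separate groups without passing. TAPBPL, a tapasin relative that edits peptides outside the loading complex, had few reads and stood at -0.55 (adjusted p = 0.248).

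The remaining inducible proteasome parts did not pass: of 4 listed, 0 were lower and 0 higher in limma, edgeR and DESeq2, also at an unadjusted p below 0.05. PSMB10, the third immunoproteasome catalytic subunit, was at 70.75, 94.39 and 94.98 in shControl and at 71.07, 68.34 and 71.49 in shRNF25 (limma log2 fold change -0.29, adjusted p = 0.291). The activator genes PSME1 (-0.07, adjusted p = 0.732) and PSME2 (-0.15, adjusted p = 0.389) did not pass either. The 5 constitutive counterparts gave 0 and 0 by the same tests, with PSMB5 at -0.15 (adjusted p = 0.521), PSMB6 at 0.06 (adjusted p = 0.853) and PSMB7 at -0.16 (adjusted p = 0.294). PSMB8 and PSMB9 thus passed where PSMB5, PSMB6 and PSMB7 did not, and the ratios above compare the pairs directly.

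Of 8 tested genes for other class I heavy chains and class I-like molecules, 3 were lower and 1 higher, with a median of -0.23. HLA-F, a class I chain that reaches the surface in part without peptide, was at 132.7, 215.5 and 239.6 in shControl and at 115.7, 115.4 and 120.1 in shRNF25 (limma log2 fold change -0.69, adjusted p = 0.0499). The class I-like genes PROCR (-1.05) and AZGP1 (-3.44), which serve coagulation control and lipid handling, were lower, and HFE (1.64, adjusted p = 0.00458), a regulator of iron uptake, was higher.

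Of 7 tested stress ligands of the receptor NKG2D, 3 were lower and 0 higher, with the same counts in edgeR, in DESeq2 and at an unadjusted p below 0.05. ULBP2 was at 444.4, 464.8 and 472.7 in shControl and at 250.6, 215.2 and 209.7 in shRNF25 (limma log2 fold change -1.03, adjusted p = 0.000712). MICB stood at -0.57 (adjusted p = 0.00816) and RAET1L at -1.34 (adjusted p = 0.00327).

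Regulators of class I transcription and interferon signaling numbered 20, of which 7 were lower and 0 higher in limma, 7 and 0 in edgeR and 8 and 1 in DESeq2, with 9 and 1 at an unadjusted p below 0.05. IRF2, an interferon regulatory factor, was at 501.9, 337.6 and 328.1 in shControl and at 216.0, 232.7 and 197.3 in shRNF25 (limma log2 fold change -0.83, adjusted p = 0.0115). IFNGR1, a chain of the interferon gamma receptor (-0.64, adjusted p = 0.0156), the receptor kinase JAK1 (-0.54, adjusted p = 0.00681) and CREB1, a factor of the class I enhanceosome (-0.52, adjusted p = 0.0288), were lower as well. NLRC5, the transactivator of class I genes, went the other way without passing, at 126.0, 184.7 and 145.7 in shControl and 239.6, 201.3 and 205.9 in shRNF25 (0.51, adjusted p = 0.0635). IRF1, an interferon-induced activator of class I genes, stood at -0.51 (adjusted p = 0.116).

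**Figure D4:**
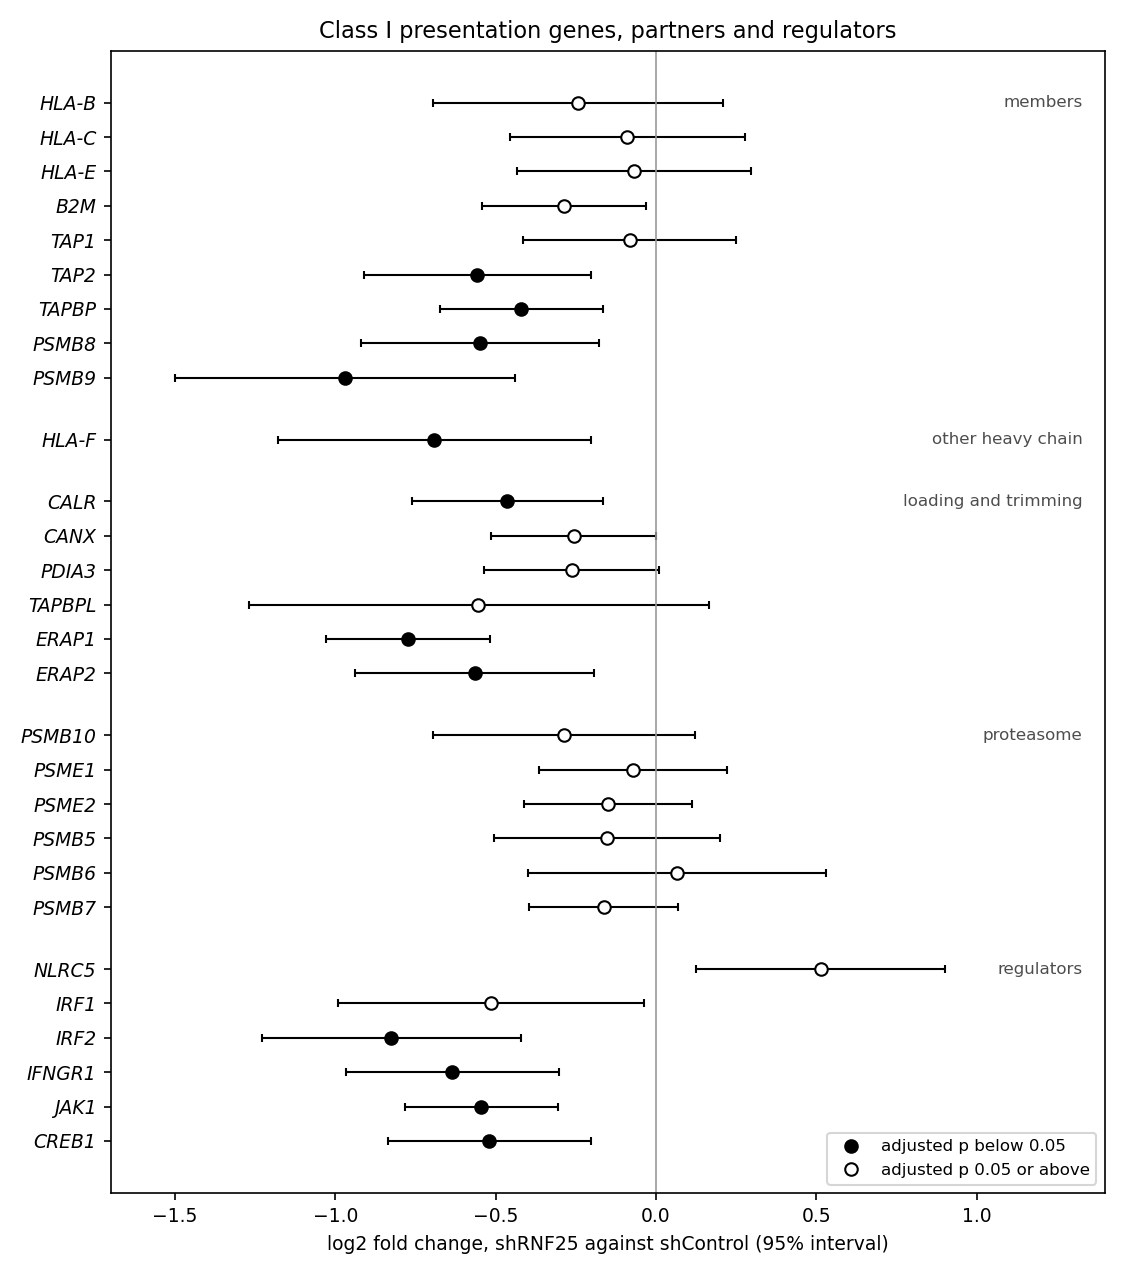
Log2 fold change, shRNF25 against shControl, with its 95% interval in limma for the 9 genes and for genes of 4 related groups, filled where the adjusted p was below 0.05. PSMB9 lies farthest to the left of the 9 genes, ERAP1 and IRF2 were lower among the related genes, and NLRC5 is to the right of 0 without passing.

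Interferon-stimulated genes were split in direction. Of 20, 3 were lower and 5 higher, with a median log2 fold change of 0.37. The counts were 3 and 10 at an unadjusted p below 0.05, 3 and 5 in edgeR and 3 and 6 in DESeq2, and the groups were separate for 3 genes in the lower and 10 in the higher direction. Over all tested genes, as given above, 10.8% were lower and 10.5% higher in limma, and 20.7% were separate in the higher direction. The lower ones were the GTPase genes GBP1 (limma -1.46, adjusted p = 0.000203) and GBP2 (-1.28, adjusted p = 0.00115) and the chemokine gene CXCL10 (-2.27, adjusted p = 0.00212). GBP1 was at 1446, 1343 and 1030 in shControl and at 456.5, 458.1 and 462.3 in shRNF25. Among the higher ones IFIT2, the gene of an RNA-binding antiviral protein, was at 752.8, 787.0 and 636.8 in shControl and at 1702, 1759 and 1558 in shRNF25 (1.21, adjusted p = 0.000234).

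Class II presentation genes were sparse, with 10 of 14 listed genes in the table and 7 tested. CTSS, a lysosomal protease of that pathway (limma log2 fold change -2.56, adjusted p = 0.000136), and HLA-DQB1 (-1.60, adjusted p = 0.0094) were lower and 0 were higher, also in edgeR, in DESeq2 and at an unadjusted p below 0.05. Of 11 tested genes listed under surface turnover of class I, IRF2BP2 was lower (limma -0.60, adjusted p = 0.00377). The ubiquitin ligase gene MARCHF8 was higher (0.80, adjusted p = 0.00484). The name of that list is not a tested function of its members, whose median was 0.01.

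The pattern of the 9 genes over the 6 libraries fell into unlike shapes. With HLA-B, Pearson's r of the log2 values was 0.958 for HLA-E, 0.952 for HLA-C and 0.907 for TAP1, but 0.251 for B2M, 0.152 for TAPBP and -0.116 for TAP2, with PSMB8 (0.677) and PSMB9 (0.637) between. These 6 points share the scaling of their libraries and are a description without a test. Among 11339 genes with a mean of at least 100, those most like TAP1 were PSME1 (0.996), SNU13 (0.994), SSR4 (0.994), OAZ1 (0.989) and EEF1AKMT4 (0.989). The genes most like HLA-B were ARHGEF40 (0.997), MAFG (0.995), PINK1 (0.994), USP35 (0.994) and PRSS22 (0.992). PSME1, at 2844, 3907 and 3574 in shControl and at 3326, 3077 and 3340 in shRNF25, shows the shape they share, a first control below and later controls above a narrow shRNF25 group.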

How the data were processed

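RNA of 6 SW839 libraries (3 shControl, 3 shRNF25) was depleted of ribosomal RNA and sequenced. The authors deposited normalized counts, a signal for 30267 gene symbols. The submitters' processing notes name fastp, HISAT2, HTSeq and GRCh38, and the study's methods name DESeq2. Versions of the read tools, the annotation and the strand setting of the counting are not given in the sources used here. Dividing each value by the smallest step of its library gave whole reads for 100% of values (tolerance 0.001 reads), and the inverse step equaled DESeq2's size factor. Deposited columns without a sample numbered 0.

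From these values, limma 3.58.1 (lmFit, eBayes with trend, R 4.3.3) was run on log2(normalized count + 1) for 16554 genes with at least 10 in at least 3 libraries, with the group as the only term and Benjamini-Hochberg adjustment. Standard errors are moderated. Single genes and ratios had two-sided exact permutation tests. The fit was tested on simulated data. Fold changes on this scale understate changes of low genes. Intervals and p-values cover only the spread of these libraries.

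Results were recomputed with a pseudocount of 5 or 0.5, without a filter or with a minimum of 50, quantile or median-ratio rescaling, edgeR 4.0.16 (quasi-likelihood) and DESeq2 1.42.0 on recovered reads, library weights by group, a replicate block, each library left out and stricter thresholds. A weight for each library and the ratio of PSMB9 to TAP1 were added after the data were seen. The 9 genes and all lists were chosen with earlier results of these data known. From each list the text names the genes past the test, at most the 4 with the largest change, and preset partners and regulators. PSMB8-AS1 was added. Some genes of these lists are counted but not reported by name. Genes were matched to the GENCODE annotation of GRCh38 by symbol for positions, exon length and overlap, and to RefSeq for promoters. No listed gene was matched through a synonym.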

Additional observations from a re-analysis of the deposited data

How the results depend on the processing

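At an adjusted p below 0.05, PSMB9 passed under every alternative other than leaving out 1 shRNF25 library, with adjusted p in the fits of all 6 libraries from 4.14e-05 to 0.0262. For the other results that changed, the cause was not tested. Under quantile normalization HLA-C (0.111), HLA-E (0.0874) and TAP1 (0.0126) changed sign, TAP2 (-0.47), TAPBP (-0.29) and PSMB8 (-0.47) no longer passed, and 1 of 9 genes was lower, against 9.97% of all tested genes. Rescaling on the median ratio gave 2 lower genes (8.62% of all tested genes), with TAPBP at -0.36 and PSMB8 at -0.49 past the threshold no longer, and PSMB8 (-0.55, adjusted p = 0.0602) was lost without a filter, where more genes were tested. With 1 weight for each library, added after the data were seen, HLA-B passed at -0.44. The count of lower genes was 1 with a fold of at least 1.5 and 0 at an adjusted p below 0.01 in limma, against 5 at an unadjusted p below 0.05.

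The deviations of same-numbered libraries from their group means had correlations of -0.0638, -0.0874 and 0.0471. The labels do not say whether same-numbered libraries were handled together, and with 3 libraries a group these correlations cannot exclude it. A fit with the replicate number as a block gave 3 lower genes (9.22% of all tested genes) and TAPBP at -0.42 (adjusted p = 0.0552), and changed no other call among the 9 genes.

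Leaving out 1 library at a time gave log2 fold changes from -0.51 to -0.0922 for HLA-B, -0.29 to 0.0311 for HLA-C, -0.27 to 0.0386 for HLA-E, -0.38 to -0.225 for B2M, -0.24 to 0.0345 for TAP1, -0.72 to -0.40 for TAP2, -0.52 to -0.36 for TAPBP, -0.69 to -0.36 for PSMB8 and -1.17 to -0.68 for PSMB9, and from 0 to 7 lower genes. HLA-C was above 0 without shControl replicate 3, HLA-E without replicate 2 (0.027) or 3, and TAP1 without replicate 2. The ratios to B2M ranged from -0.25 to 0.245 for HLA-B, -0.0341 to 0.37 for HLA-C and -0.0125 to 0.404 for HLA-E, each turning negative without shControl replicate 1. In the 9 related lists 12 to 31 genes were lower and 3 to 12 higher, against 23 and 7 with all libraries, lowest in both cases without an shRNF25 library and highest without shControl replicate 1. Over all tested genes the lower share also ranged from 5.20% without shRNF25 replicate 3 to 18.0% without shControl replicate 1. The higher share ranged from 4.64% without shRNF25 replicate 1 to 15.8% without shControl replicate 1. Library weights by group gave 11 higher genes in these lists (10.1% of all tested genes) and 1 weight for each library gave 13 (16.5%).

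With 3 libraries a group, 1 hairpin and controls that spread more widely than the shRNF25 libraries, a fall of the size of that of B2M did not pass. Recovered reads of the 9 genes numbered at least 107 in each library. A fit that leaves out 1 library of a group rests on fewer libraries.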
